A study of Mus musculus with 12 samples.

Results

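Expression of 9 genes that respond to or govern the tumor suppressor p53 was examined in the small intestine of PPARα-null and wild-type mice, fasted for 24 h or fed. The genes were *Pmaip1*, *Bbc3*, *Bax*, *Cdkn1a*, *Btg2*, *Ccng1*, *Mdm2*, *Trp53inp1* and *Trp53* itself, and all probe sets carrying 1 of these symbols alone were taken. Of these genes, 7 were represented, by 13 probe sets, among 12394 genes with a symbol on the array. *Trp53* and *Bax* had no probe set under their symbol in the annotation used and were not analysed here. The members were chosen by name, around the measured rise of *Pmaip1* in fasted PPARα-null mice, with earlier results of these arrays known. For that reason *Pmaip1* values in all comparisons with fasted PPARα-null mice, and all values of the fasting response in PPARα-null mice, are given as descriptions without a test.

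Total RNA from 12 samples was hybridized to Affymetrix arrays, 3 for each of 4 groups. The groups were PPARα-null mice fasted for 24 h, wild-type mice fasted for 24 h, fed PPARα-null mice and fed wild-type mice. All animals were males of 14 weeks. PPARα, which the null animals are without, is the nuclear receptor that switches on fatty acid oxidation genes in fasting. Fasted PPARα-null mice were labelled 129S4/SvJae and fasted wild-type mice 129S1/SvImJ, whereas fed mice of both genotypes were labelled 129Sv. The study's methods give the same substrains for its PPARα-null and wild-type mice as a whole. Genotype and substrain therefore cannot be told apart in any comparison of genotypes, fed or fasted, or of their fasting responses. Food was withdrawn at the start of the light phase, and the whole length of the small intestine was taken after flushing and removal of fat and pancreas. The sources used here do not say whether a sample holds RNA of 1 mouse or of several. The p-values therefore measure the spread between these samples, and their number limits the precision.

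One label field described the fasted wild-type samples as knockout, in conflict with their titles and strain. The *Ppara* probe set gave 11.0 to 13.2 on the fasted PPARα-null arrays, 30.8 to 58.7 on the fasted wild-type arrays, 6.84 to 7.50 on the fed PPARα-null arrays and 19.9 to 35.9 on the fed wild-type arrays. The genotypes in the titles, which were used, thus did not overlap in *Ppara* signal within either feeding state. Median intensities lay at 11.1 to 11.3 on the 6 fasted arrays and at 12.7 to 12.8 on the 6 fed arrays, and the 2 sets of values were deposited with different numbers of decimals. Whether fasted and fed arrays were normalized apart cannot be told apart from the feeding state. All fasting responses below are log2 differences relative to a common shift, the median fall of 0.32 on the log2 scale in fasted arrays over the probe sets tested. Not all probe sets shared it. With no filter on level, 1899 genes met the criteria below as higher and 635 as lower upon fasting in wild-type mice. With the filter these numbers were 753 and 579. Genotypes compared within fasted or within fed mice, and responses set against each other, do not depend on that shift. A probe set was tested when its mean in fed wild-type mice was over 20, which held for 9370 probe sets of 5821 genes, and called changed at an unadjusted p under 0.01 with a fold over 1.3.

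The transcription factor p53 is kept low in unstressed cells by the ubiquitin ligase Mdm2, itself a p53 target, and accumulates upon DNA damage and other stresses. Its targets stop the cell cycle or start the mitochondrial pathway of apoptosis, in which BH3-only proteins such as Noxa and Puma neutralize the Bcl2 family guardians of the outer mitochondrial membrane. In the intestinal epithelium this system is best known for the death of crypt cells after irradiation. Several of these targets also answer to other factors, among them FoxO and ATF4, which are active when nutrients are short.

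*Pmaip1*, on chromosome 18 (66458604 to 66465558, GRCm38.p6), encodes Noxa, the BH3-only protein that binds Mcl1. Its probe set gave 591, 373 and 515 in fasted PPARα-null mice. The signal was 137, 96.9 and 82.9 in fasted wild-type mice, 86.8, 74.9 and 66.5 in fed PPARα-null mice, and 96.0, 59.8 and 62.7 in fed wild-type mice. The 3 fasted PPARα-null arrays stood above the other 9. The mean was 493 ± 110.3 in fasted PPARα-null mice, 105 ± 27.9 in fasted wild-type mice, 76.1 ± 10.2 in fed PPARα-null mice and 72.8 ± 20.1 in fed wild-type mice (SD, n = 3 each), and the 3 groups with lower means overlapped in part. In PPARα-null mice the fasted mean exceeded the fed mean by 2.99 ± 0.22 on the log2 scale (SE), 7.97-fold relative to the common shift. Within the fasted state the PPARα-null mean exceeded the wild-type mean 4.69-fold. Wild-type mice also responded to fasting, with all 3 fasted arrays above the 3 fed arrays once the shift was removed, as for 27.0% of all genes tested. That rise was 1.80-fold (log2 0.85 ± 0.22, SE; limma adjusted p = 0.0161). It was 0.54 on the log2 scale in the values as deposited, which did not pass the test, and it also missed the threshold without fasted wild-type replicate 1 (0.65) or fed wild-type replicates 2 (0.73) or 3 (0.76). The 2 responses differed by 2.14 ± 0.31 on the log2 scale. Between the fed genotypes the difference was 0.09 ± 0.22.

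**Figure D1:**
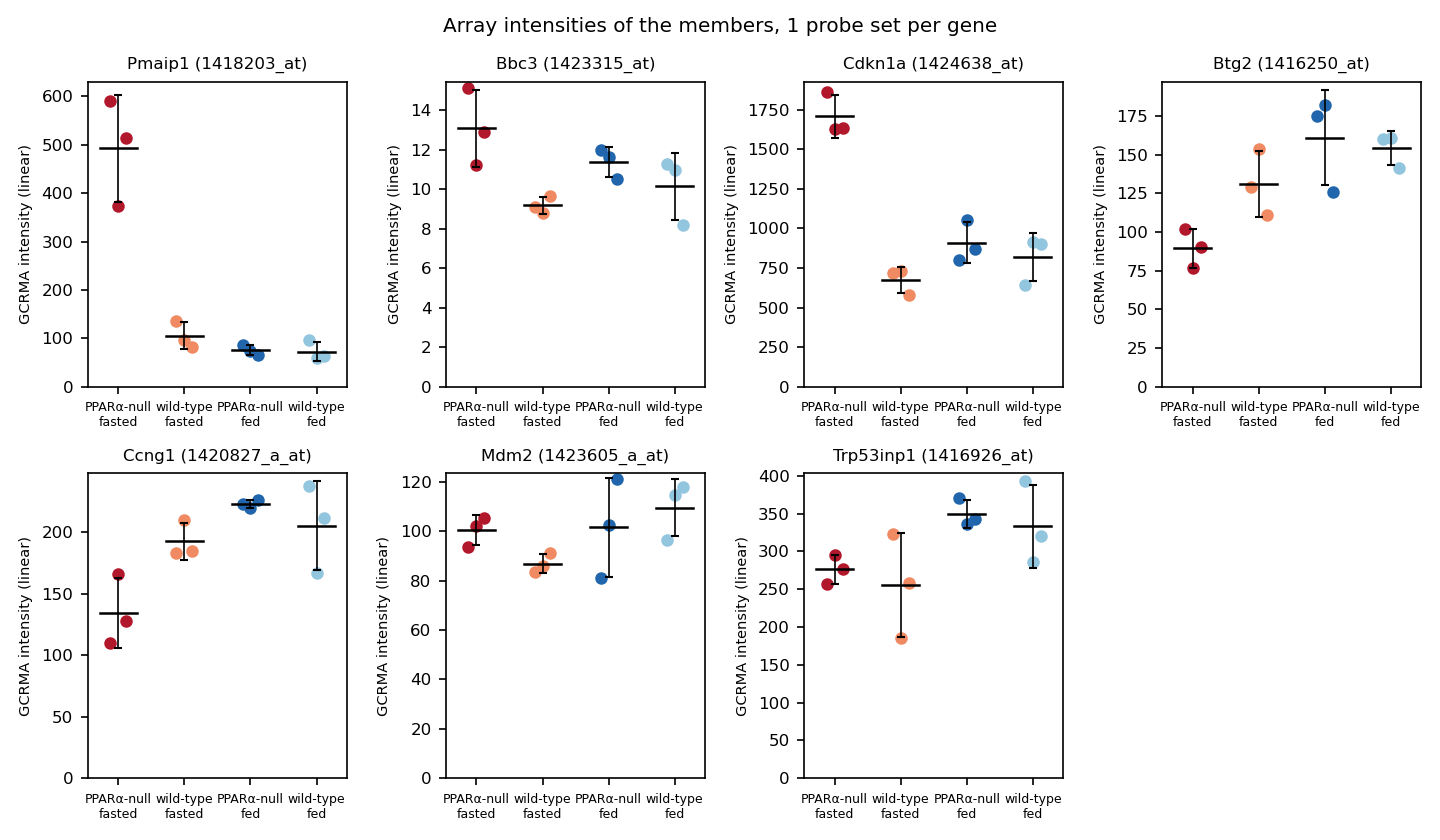
Intensity (deposited values, linear axis from 0) of 1 probe set for each of the 7 genes, with a dot per array, a line at the mean and bars of 1 SD (n = 3 arrays) for each of the 4 groups. For *Pmaip1* the 3 fasted PPARα-null arrays lie between 373 and 591 and all other arrays at or below 137. For *Btg2* the fasted PPARα-null arrays are the lowest.

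*Bbc3*, which encodes Puma, the other BH3-only protein of the p53 response, was dim on all arrays. Its signal was 15.1, 11.2 and 12.9 in fasted PPARα-null mice, 9.11, 8.82 and 9.64 in fasted wild-type mice, 11.98, 11.7 and 10.6 in fed PPARα-null mice, and 11.3, 11.0 and 8.18 in fed wild-type mice. All 12 values were below the level of 20 at which a probe set was tested. The fasted PPARα-null arrays did not overlap the fasted wild-type arrays, with a difference of 0.50 ± 0.13 on the log2 scale (SE). It was left out of the calls for its level. With no filter on level it was called.

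*Cdkn1a* encodes p21, the inhibitor of cyclin-dependent kinases through which p53 arrests the cell cycle. Its probe set 1424638_at gave 1863, 1627 and 1632 in fasted PPARα-null mice, 716, 729 and 578 in fasted wild-type mice, 803, 1055 and 871 in fed PPARα-null mice, and 645, 913 and 903 in fed wild-type mice. Again the 3 fasted PPARα-null arrays stood apart. The fed wild-type arrays overlapped both other groups, while the fasted wild-type arrays lay below the fed PPARα-null arrays in these deposited values. Expression in fasted PPARα-null mice was 2.54-fold that in fasted wild-type mice (log2 1.34 ± 0.15, SE; limma adjusted p = 2.35e-05). In wild-type mice fasting left a difference of 0.04 ± 0.15 on the log2 scale (limma adjusted p = 0.859, 95% interval -0.28 to 0.37). The fasting responses of the 2 genotypes differed by 1.19 ± 0.21 (limma adjusted p = 0.00181), and the description for PPARα-null mice was a gain of 1.23 ± 0.15. A second probe set, 1421679_a_at, had 44.6, 41.5 and 45.4 in fasted PPARα-null mice, and 13.2, 10.5 and 11.7 in fasted wild-type mice. It stayed between 9.06 and 14.9 on the 6 fed arrays and was not tested, since its fed wild-type mean was under 20. Both *Cdkn1a* probe sets thus had the same order of groups at the top.

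Start site sequences from RefSeq (GRCm38.p6) are shown for the members in which a p53 decamer consensus was found on either strand within 250 bases upstream. Windows were examined for 5 of the 7 genes, 8 windows in all, and not for *Pmaip1* or *Trp53inp1*. Of the 5 genes, 3 had a match, in 1 window each. Over all 32851 windows of that length 7.13% held a match. Only 21 windows, 0.0639%, held a pair of decamers separated by 13 bases or less, the form in which p53 binds as a tetramer. The *Cdkn1a* window was 1 of them. It covers chr17:29090729-29090978 on the plus strand and is printed 5′ to 3′ with the decamers in capitals, GGACTAGCTT from base -73 and GAACATGTCT from base -51, 12 bases apart. Only strict matches are marked. The bases directly after GAACATGTCT, TGACATGTTC, depart from the consensus in the first base alone and stay in lower case. The marked pair therefore need not be the pair that p53 would bind.
Cdkn1a: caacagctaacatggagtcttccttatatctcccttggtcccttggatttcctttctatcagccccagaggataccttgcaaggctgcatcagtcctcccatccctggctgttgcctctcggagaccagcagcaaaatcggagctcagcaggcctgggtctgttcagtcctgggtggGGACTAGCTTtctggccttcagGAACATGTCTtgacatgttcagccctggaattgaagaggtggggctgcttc
The window of the other *Cdkn1a* start site, and those of *Bbc3* and *Btg2*, held no match. A match describes the sequence and does not show binding.

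*Btg2* encodes an antiproliferative protein that recruits the deadenylases which shorten mRNA tails. Both of its probe sets were lower in fasted PPARα-null mice than in fasted wild-type mice. Probe set 1448272_at gave 37.2, 27.9 and 37.9 in fasted PPARα-null mice, 61.6, 71.0 and 53.4 in fasted wild-type mice, 85.4, 82.6 and 65.3 in fed PPARα-null mice, and 88.3, 80.1 and 70.8 in fed wild-type mice. Here the fasted PPARα-null arrays were the lowest 3 of the 12, without overlap. The fall was 1.81-fold against fasted wild-type mice (log2 -0.86 ± 0.15, SE; limma adjusted p = 0.000693). The other probe set, 1416250_at, gave 102, 76.5 and 90.2 in fasted PPARα-null mice, 129, 154 and 111 in fasted wild-type mice, 175, 182 and 126 in fed PPARα-null mice, and 160.5, 161 and 142 in fed wild-type mice. It fell by 0.55 on the log2 scale (SE 0.16; limma adjusted p = 0.0149), a call that was lost without fasted PPARα-null replicate 2 (-0.44) or 3 (-0.56) and without fasted wild-type replicate 1 (-0.55) or 2 (-0.43). Fasting in wild-type mice gave differences of -0.05 ± 0.15 and 0.07 ± 0.16 for the 2 probe sets, and neither passed the test. The fasting responses differed by -0.82 ± 0.21 for 1448272_at (limma adjusted p = 0.0156) and by -0.59 ± 0.22 for 1416250_at, which missed the threshold (limma adjusted p = 0.0733) and passed it without fasted wild-type replicate 3 (-0.71) or fed PPARα-null replicate 3 (-0.76).

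*Ccng1* encodes cyclin G1, a p53 target that brings protein phosphatase 2A to Mdm2. Of its 3 probe sets, 2 were lower in fasted PPARα-null mice than in fasted wild-type mice. Probe set 1450017_at gave 36.6, 42.3 and 44.1 in fasted PPARα-null mice, 64.1, 54.2 and 67.0 in fasted wild-type mice, 97.7, 86.2 and 97.8 in fed PPARα-null mice, and 90.4, 84.9 and 98.8 in fed wild-type mice. The 2 fasted groups did not overlap, and the fall against fasted wild-type mice was 1.51-fold (log2 -0.59 ± 0.11, SE; limma adjusted p = 0.000959). Probe set 1420827_a_at gave 110.0, 166 and 128 in fasted PPARα-null mice, 184, 210.2 and 185 in fasted wild-type mice, 223, 219 and 226 in fed PPARα-null mice, and 238, 167 and 212 in fed wild-type mice. It fell by 0.54 on the log2 scale (SE 0.15; limma adjusted p = 0.0129), a call that was lost without fasted PPARα-null replicate 1 (-0.40) or 3 (-0.51) or fasted wild-type replicate 2 (-0.47). The third, 1450016_at, lay between 83.5 and 93.6 in fasted PPARα-null mice and between 85.1 and 94.7 in fasted wild-type mice. The fasted groups overlapped there, and the difference was -0.02 ± 0.11 (95% interval -0.25 to 0.21; limma adjusted p = 0.917). The fasting responses of the 2 genotypes differed by -0.63 ± 0.15 and -0.67 ± 0.21 for the first 2 probe sets (limma adjusted p = 0.0110 and 0.0377) and by 0.08 ± 0.15 for the third. For 1420827_a_at the call on that difference was lost when any 1 array other than fasted PPARα-null replicate 2 (-0.83) or fed wild-type replicate 1 (-0.78) was left out, at -0.71 to -0.53. It was also lost after quantile normalization (-0.62) and with arrays centred on their median (-0.59). In wild-type mice 1450016_at was 1.28-fold lower upon fasting (limma adjusted p = 0.0312), short of the fold of 1.3, and the other 2 probe sets did not pass. These calls depended on the scaling. As deposited, 1450016_at stood at -0.67 and 1450017_at at -0.57 and both were called, and after quantile normalization 1450016_at was called at -0.39. It was also called without fasted wild-type replicate 2 (-0.39) or fed wild-type replicate 1 (-0.40). Which transcripts of *Ccng1* each probe set reads was not analysed here.

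*Mdm2*, the ligase that marks p53 for destruction, did not pass the test in any comparison once the common shift was removed. Probe set 1423605_a_at gave 93.8, 102 and 105 in fasted PPARα-null mice, 83.4, 85.9 and 91.1 in fasted wild-type mice, 81.0, 103 and 121 in fed PPARα-null mice, and 96.4, 114 and 118 in fed wild-type mice. The fasted PPARα-null arrays were all above the fasted wild-type arrays, but by 0.21 ± 0.13 on the log2 scale (95% interval -0.07 to 0.49; limma adjusted p = 0.229). For 1427718_a_at the values were 66.9, 57.5 and 66.6 in fasted PPARα-null mice and 50.9, 59.3 and 48.6 in fasted wild-type mice, a difference of 0.27 ± 0.12 (limma adjusted p = 0.105). In fed mice it gave 63.4, 70.2 and 78.7 in the PPARα-null group, and 70.8, 79.0 and 93.2 in the wild-type group. The fasting responses differed by 0.33 ± 0.18 and 0.46 ± 0.17, with limma adjusted p-values of 0.220 and 0.0766, neither past the threshold. In wild-type mice the fasting responses were -0.02 ± 0.13 and -0.29 ± 0.12, and in the values as deposited 1427718_a_at stood at -0.61 and was called. The difference of 0.46 between the responses passed without fed wild-type replicate 1 (0.55) and after quantile normalization (0.56) or centring of each array on its median (0.54).

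The upstream windows of *Mdm2* (chr10:117710759-117711008, minus strand) and *Ccng1* (chr11:40755287-40755536, minus strand) held 1 decamer each and no pair. They are printed 5′ to 3′ with the decamer in capitals, GAACTTGCCT from base -186 and GGGCAAGCCT from base -185, for comparison with the paired decamers of *Cdkn1a*.
Mdm2: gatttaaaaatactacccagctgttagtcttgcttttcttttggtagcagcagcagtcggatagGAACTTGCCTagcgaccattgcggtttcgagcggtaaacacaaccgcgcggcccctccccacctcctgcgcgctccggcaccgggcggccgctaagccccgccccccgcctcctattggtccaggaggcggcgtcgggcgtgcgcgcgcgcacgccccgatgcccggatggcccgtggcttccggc
Ccng1: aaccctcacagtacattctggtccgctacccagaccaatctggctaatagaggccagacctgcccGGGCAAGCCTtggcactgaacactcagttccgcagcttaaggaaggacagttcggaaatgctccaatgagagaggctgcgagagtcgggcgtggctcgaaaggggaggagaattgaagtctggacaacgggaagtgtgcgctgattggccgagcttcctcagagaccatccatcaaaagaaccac
Of these 3 genes, *Cdkn1a* was higher in fasted PPARα-null than in fasted wild-type mice, *Ccng1* was lower on 2 of 3 probe sets and *Mdm2* did not pass the test. A relation between decamers and expression was not tested, and no window of *Pmaip1* was examined.

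*Trp53inp1* encodes a stress-induced nuclear protein that promotes phosphorylation of p53 and takes part in autophagy. Probe set 1416926_at gave 257, 296 and 277 in fasted PPARα-null mice, 323, 185 and 259 in fasted wild-type mice, 371, 336 and 342 in fed PPARα-null mice, and 393, 286 and 320.5 in fed wild-type mice. The genotypes overlapped in both feeding states. The difference between the fasted genotypes was 0.15 ± 0.17 on the log2 scale (95% interval -0.22 to 0.52; limma adjusted p = 0.532), and the fasting responses differed by 0.06 ± 0.24. The other probe set, 1416927_at, stayed between 8.99 and 18.9 on all arrays and was not tested.

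**Figure D2:**
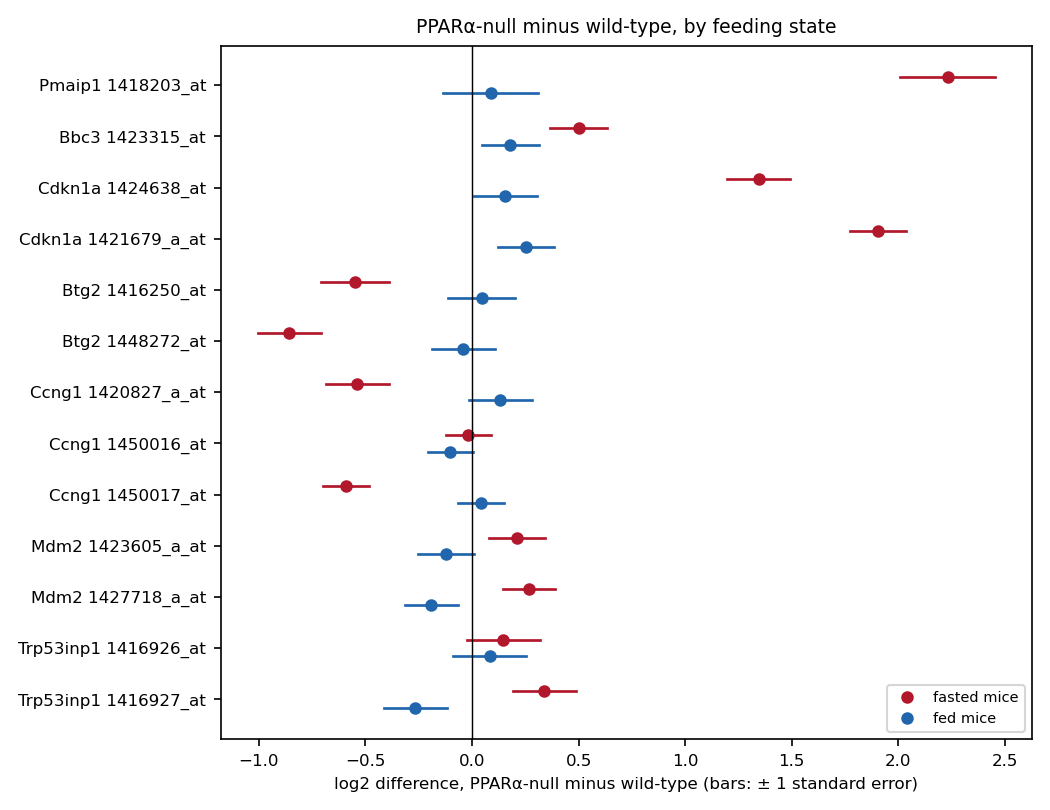
Differences between PPARα-null and wild-type mice (log2, PPARα-null minus wild-type) for the 13 probe sets, in the fasted and in the fed state, as points with bars of 1 SE from the limma fit (12 arrays). In the fasted state *Pmaip1* lies at 2.23 and the 2 *Cdkn1a* probe sets at 1.34 and 1.90, while both *Btg2* and 2 of 3 *Ccng1* probe sets lie at -0.54 or lower. In the fed state all 13 lie between -0.27 and 0.25.

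The comparison of genotypes in fed mice asked whether these genes differed between PPARα-null and wild-type mice when food was at hand. All probe sets overlapped between the fed genotypes, whereas 13.8% of all genes tested had PPARα-null arrays entirely higher and 8.23% entirely lower. The members showed differences between -0.27 for *Trp53inp1* 1416927_at and 0.25 for *Cdkn1a* 1421679_a_at on the log2 scale. Of the 5 members tested other than *Pmaip1*, limma called 0, and 0 probe sets had an unadjusted p under 0.05. Among all genes tested, 3.28% were called in that comparison. In fasted mice 2 of the 5 had a probe set with PPARα-null arrays all above the wild-type arrays (*Cdkn1a* and *Mdm2*), against 25.9% of all genes, and 2 had one all below (*Btg2* and *Ccng1*), against 31.8%. The test called 3 of the 5 (*Cdkn1a* higher, *Btg2* and *Ccng1* lower), against 35.1% of all genes tested. The difference between the fasting responses passed for the same 3 genes, against 27.1% of all genes. These 2 comparisons share the fasted PPARα-null arrays, which differed from the rest across much of the array. Without replicates 1 and 3 of that group the share of all genes called was 26.2% between the fasted genotypes and 19.8% for the difference in response. Upon fasting in wild-type mice, 1 of 6 members was called (*Pmaip1*), against 22.8% of all genes tested, 753 of them higher and 579 lower. In the values as deposited that split was 192 against 2246.

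For fasting in PPARα-null mice 50.4% of all genes tested met the criteria for a call. *Pmaip1*, whose rise in this comparison guided the choice of members, is not counted here, which leaves 5 members with a testable probe set. In the description, *Cdkn1a* alone of these had fasted arrays all above the fed arrays, against 33.8% of all genes. For another 2 a probe set lay entirely below (*Ccng1* and *Btg2*), against 40.2% of all genes. *Btg2* 1448272_at was at -0.87 ± 0.15 on the log2 scale and *Ccng1* 1450017_at at -0.88 ± 0.11. *Mdm2* lay at 0.32 and 0.17, and *Trp53inp1* 1416926_at at -0.03.

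**Figure D3:**
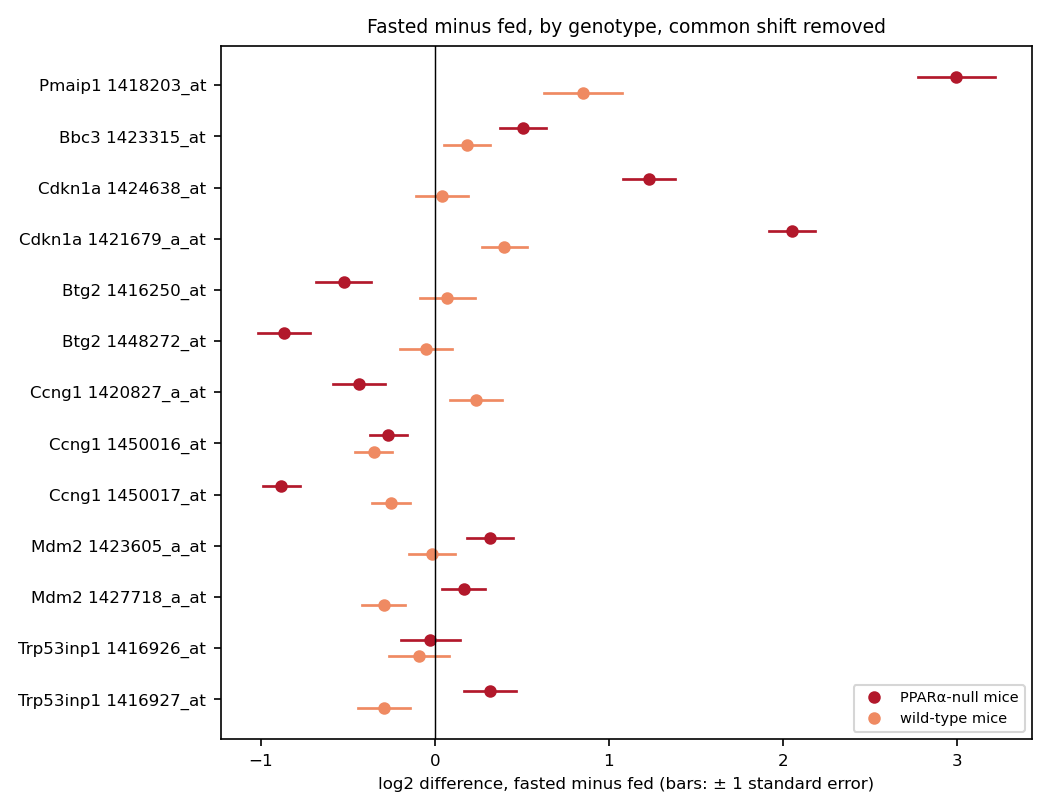
Fasting responses (log2, fasted minus fed, relative to the median shift of -0.32 over all tested probe sets) of the 13 probe sets in PPARα-null and in wild-type mice, as points with bars of 1 SE from the limma fit (12 arrays). *Pmaip1* lies at 2.99 in PPARα-null and at 0.85 in wild-type mice, and *Cdkn1a* 1424638_at at 1.23 in PPARα-null and at 0.04 in wild-type mice.

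Transcripts of other cell types differed between the same arrays. In whole tissue, fewer cells of a type and less RNA per cell cannot be told apart. The summed signal of 10 exocrine pancreas markers was 23395 and 24655 in fasted PPARα-null replicates 1 and 3, but 141 in replicate 2, and 9323 to 20108 in fasted wild-type mice. It was 127 to 637 in fed PPARα-null mice and 129 to 1321 in fed wild-type mice. Replicate 2 of the fasted PPARα-null mice, with the pancreas sum of 141, had a *Pmaip1* signal of 373 and a *Cdkn1a* signal of 1627. The part of the pancreas signal in these values was not tested. Leaving out replicates 1 and 3 leaves 1 array of fasted PPARα-null mice and takes its spread from the other groups. That array, with a sum of 141, is then set against fasted wild-type arrays of 9323 to 20108. The setting thus does not take the pancreas signal out of the comparison. The difference between the fasted genotypes was then 1.86 for *Pmaip1*, 1.28 for *Cdkn1a* 1424638_at, -1.14 and -0.77 for *Btg2*, and -0.54 for *Ccng1* 1450017_at. *Ccng1* 1420827_a_at then stood at -0.21 and was no longer called.

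**Figure D4:**
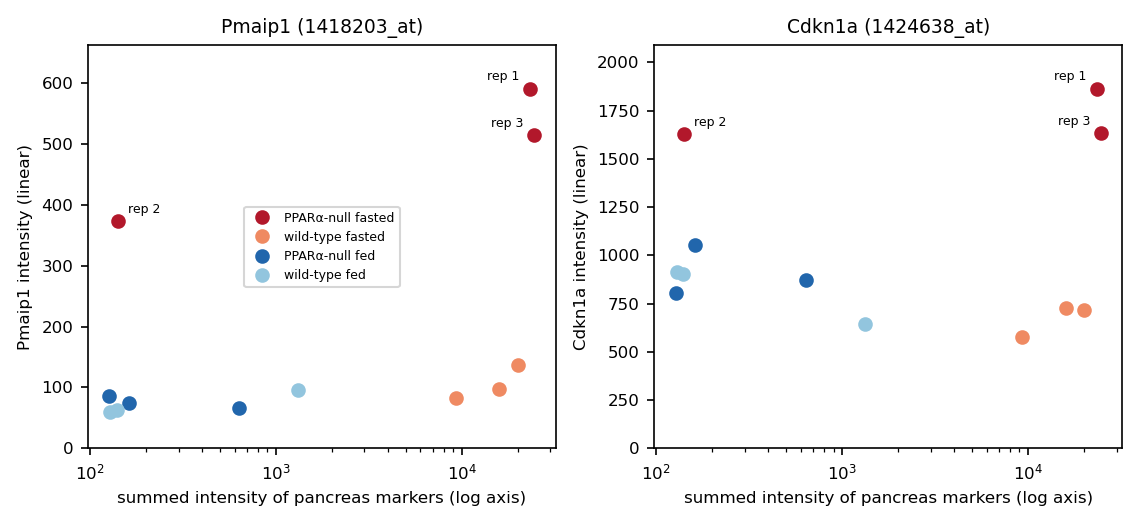
Intensity of *Pmaip1* (1418203_at) and *Cdkn1a* (1424638_at) against the summed intensity of 10 exocrine pancreas markers (log axis), with a dot per array (12 arrays). The fasted PPARα-null array with a pancreas sum of 141 has 373 for *Pmaip1* and 1627 for *Cdkn1a*, above all arrays of the other 3 groups.

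Markers of lymphocytes and other leukocytes summed to 694 to 739 in fasted PPARα-null mice, 1447 to 1614 in fasted wild-type mice, 1344 to 1739 in fed PPARα-null mice and 2118 to 2467 in fed wild-type mice (8 of 9 measured). Of the 7 tested, 6 were lower in fasted PPARα-null than in fasted wild-type mice. Among all genes tested, 21.4% were lower and 14.4% higher in that comparison, beside which the marker counts of the fasted genotypes stand. *Gzmb*, a cytotoxic granule protease, was 1 of the 6, with a mean of 8.78 in fasted PPARα-null and 67.2 in fasted wild-type mice. Markers of crypt cells and proliferation (5 of 7 measured) summed to 1006 to 1117 in fasted PPARα-null mice and 1154 to 1432 in fasted wild-type mice, with 2 of 3 tested lower. The sums were 1887 to 2162 in fed PPARα-null mice and 1813 to 1988 in fed wild-type mice. *Lgr5* and *Ascl2*, which define crypt stem cells, stayed under 20 in every group mean. Of 3 adipose markers, both that were tested were higher in fasted PPARα-null mice. *Fabp4* averaged 1435 in fasted PPARα-null and 648 in fasted wild-type mice, and *Cidec* 276 in fasted PPARα-null and 183 in fasted wild-type mice. *Adipoq*, made by fat cells, was under 20 in every group and was at 4.88 in fasted PPARα-null and 8.22 in fasted wild-type mice. Goblet cell markers were lower for 2 of 3, among them *Clca1* at 2912 in fasted PPARα-null and 3954 in fasted wild-type mice. The remaining goblet marker, *Tff3*, averaged 8022 in fasted PPARα-null and 6464 in fasted wild-type mice. The goblet sum was 11165 to 11823 in fasted PPARα-null and 10444 to 11491 in fasted wild-type mice. Paneth cell markers were lower for 1 of 2, *Mmp7*, at 514 in fasted PPARα-null and 697 in fasted wild-type mice. Of 6 smooth muscle markers, 4 were lower upon fasting in wild-type mice, against 9.95% of all genes tested. Enterocyte markers summed to 33283 to 34021 in fasted PPARα-null mice and 31876 to 33858 in fasted wild-type mice, and none of the 5 was called in any comparison tested. The part of these other transcripts in the values of *Cdkn1a*, *Btg2* and *Ccng1* was not tested.

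The remaining genes of the pathway were described by 6 lists. Each is given by the number called between the fasted genotypes and by its median difference, beside a median of -0.03 and the 14.4% higher and 21.4% lower among all genes tested. Of 13 further p53 targets tested, 3 were higher in fasted PPARα-null mice and 1 was lower, with a median of 0.14. *Ddit4*, an inhibitor of mTORC1 that also answers to glucocorticoids and hypoxia, averaged 211 ± 52.8 in fasted PPARα-null and 46.1 ± 17.3 in fasted wild-type mice (log2 2.24; limma adjusted p = 2.73e-05). *Sesn1*, a leucine-sensing sestrin, gave 739 ± 138 in fasted PPARα-null and 357 ± 52.7 in fasted wild-type mice on probe set 1433711_s_at (log2 1.04; limma adjusted p = 0.000134). *Ier5*, a stress-induced nuclear protein, was higher by 0.91 and 0.70 on its 2 probe sets. *Apaf1*, the scaffold of the apoptosome, was lower, at 44.4 ± 11.3 in fasted PPARα-null and 174 ± 16.01 in fasted wild-type mice (log2 -2.00; limma adjusted p = 7.23e-06).

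Of 8 anti-apoptotic Bcl2 family members and caspase inhibitors, 4 were lower in fasted PPARα-null mice, 1 was higher and 1 moved both ways, with a median of -0.54. *Mcl1*, the main partner of Noxa, fell on 4 of its 6 probe sets by 0.62 to 1.06 on the log2 scale. The other 2 probe sets gave 0.11 (1448503_at, limma adjusted p = 0.467) and -0.09 (1416881_at, limma adjusted p = 0.565). On 1456243_x_at it averaged 704 ± 31.1 in fasted PPARα-null and 1087 ± 83.6 in fasted wild-type mice (limma adjusted p = 0.000101). *Xiap*, which blocks caspases, averaged 241 in fasted PPARα-null and 452 in fasted wild-type mice (log2 -0.91 ± 0.08, SE; limma adjusted p = 6.06e-06). *Cflar*, the inhibitor of caspase 8 activation, was split between its probe sets. Probe set 1424996_at averaged 33.7 ± 3.63 in fasted PPARα-null and 125 ± 17.8 in fasted wild-type mice (log2 -1.88), whereas 1449317_at was higher, at 38.8 ± 2.59 in fasted PPARα-null and 19.5 ± 3.36 in fasted wild-type mice. *Bcl2l1*, which encodes Bcl-xL, was higher by 0.57 and *Bcl2l2* lower by 0.56.

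Among 5 pro-apoptotic Bcl2 relatives 2 were lower in fasted PPARα-null mice (median -0.35). *Bad* averaged 29.9 ± 2.91 in fasted PPARα-null and 48.8 ± 6.32 in fasted wild-type mice (limma adjusted p = 0.000497), and *Bnip3* 38.9 ± 4.61 in fasted PPARα-null and 61.3 ± 17.2 in fasted wild-type mice (limma adjusted p = 0.0220). Of 12 caspases and released mitochondrial proteins, 2 were higher and 2 lower (median -0.19). *Casp1*, the inflammatory caspase, averaged 363 ± 17.6 in fasted PPARα-null and 614 ± 14.5 in fasted wild-type mice (limma adjusted p = 0.000121), and *Aifm1*, a flavoprotein of mitochondria, was lower (log2 -0.42; limma adjusted p = 0.00254). *Dffb*, the nuclease that cuts chromatin between nucleosomes, averaged 40.8 ± 17.6 in fasted PPARα-null and 20.7 ± 1.32 in fasted wild-type mice (log2 0.88; limma adjusted p = 0.0132). *Endog*, a mitochondrial nuclease, averaged 72.7 ± 6.02 in fasted PPARα-null and 48.3 ± 3.08 in fasted wild-type mice (log2 0.59; limma adjusted p = 0.00362). Of 10 p53 regulators 1 was higher and 2 were lower (median -0.19). The ligase *Rchy1*, which ubiquitinates p53, averaged 352 ± 24.7 in fasted PPARα-null and 167 ± 9.27 in fasted wild-type mice (limma adjusted p = 2.18e-05), and *Cop1*, another p53 ligase, was lower (log2 -0.62; limma adjusted p = 0.000863). Of 8 further growth arrest genes only *Ccng2*, a FoxO target, was called, at -0.69 and -0.68 on 2 probe sets (median of the list 0.17). With fasted PPARα-null replicates 1 and 3 left out, a single array stands for that group and is assumed to vary like the other groups. Its pancreas sum was 141, against 9323 to 20108 on the fasted wild-type arrays. *Ccng2* then gave -0.14 and -0.32 and *Dffb* 1.497. *Ier5* (0.95 and 0.69), *Bcl2l2* (-0.53), *Bnip3* (-0.79) and *Endog* (0.45) had similar differences with wider errors and were no longer called. The calls of *Aifm1* (-0.31), *Trp53bp1* (-0.60) and *Birc3* (-0.45) were lost as well.

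**Figure D5:**
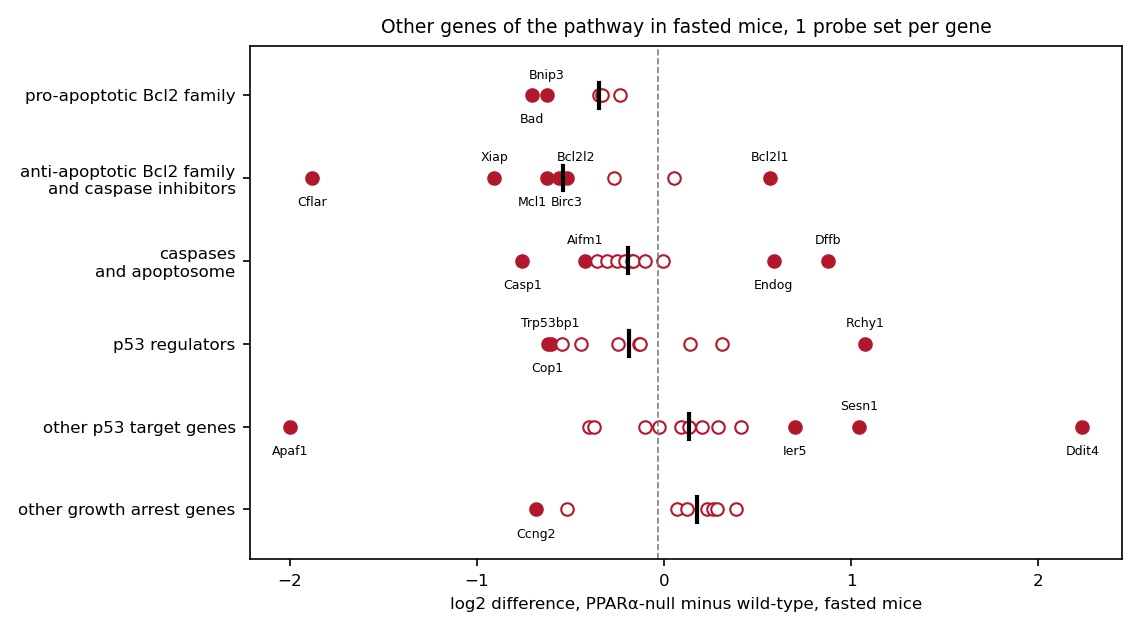
Differences between fasted PPARα-null and fasted wild-type mice (log2, PPARα-null minus wild-type) for the genes tested in 6 pathway lists, 1 probe set per gene, with filled points for called probe sets, a black bar at each list median and a dashed line at the median of all genes tested (-0.03). *Ddit4* lies at 2.24 and *Apaf1* at -2.00. The anti-apoptotic list has the lowest median, -0.54.

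In wild-type mice fasting changed 2 of the 5 pro-apoptotic genes, 4 of the 13 further p53 targets, 3 of the 8 growth arrest genes, 2 of the 10 regulators, 1 of the 8 anti-apoptotic genes and, in the limma fit, 0 of the 12 caspases and mitochondrial proteins (3 had an unadjusted p under 0.05), beside 12.9% higher and 9.95% lower among all genes tested. The pro-apoptotic genes *Bok* and *Bnip3* rose, *Bok* to 49.4 ± 21.3 in fasted wild-type mice against 24.0 ± 2.82 in fed wild-type mice (log2 1.27 relative to the common shift; limma adjusted p = 0.00295). Of the 13 further p53 targets, *Gadd45a*, a stress sensor that interacts with PCNA, fell to 51.6 ± 7.38 in fasted wild-type mice against 126 ± 33.0 in fed wild-type mice (log2 -0.96; limma adjusted p = 0.00141). *Sfn* and *Ephx1* were also lower and *Ddb2*, which recognizes UV damage, was higher by 0.85. Among growth arrest genes *Tob2*, *Cdkn2b* and *Trp53inp2* were lower. *Mcl1* was higher on 1 probe set by 0.68, and of the regulators *Hipk2*, a kinase of p53, was higher by 0.65 and *Trp53bp1* lower by 0.76. Between the fed genotypes *Cflar*, *Sesn1* and *Bid* were higher in PPARα-null mice and *Bnip3* was lower, with limma adjusted p-values of 0.110 to 0.236.

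Across the 12 arrays, with the common shift removed, *Pmaip1* varied most closely with *Cdkn1a* (Pearson r = 0.886) and *Bbc3* (r = 0.879) among the members and inversely with *Btg2* (r = -0.643) and *Ccng1* (r = -0.602). These r describe arrays that fall into groups and share their normalization, and no p was attached. All 12 *Bbc3* values were below the level of 20, and the part of the common shift in its r was not tested. Other genes were ranked where their mean over all 12 arrays was over 20, which held for 5711. Those most like *Pmaip1* were *Zfp623*, *Yy1*, *Ap2a2*, *Esco1* and *Nsf*, with r between 0.982 and 0.988. The fed wild-type means of *Yy1* (16.15), *Ap2a2* (19.0), *Esco1* (19.0) and *Nsf* (18.7) were under the level used for tests. Such a ranking picks genes that repeat the step of *Pmaip1* and gives that step no support. *Ap2a2*, a subunit of the clathrin adaptor, had the widest step, with 253 ± 4.50 in fasted PPARα-null mice, 36.4 ± 7.65 in fasted wild-type mice, 20.8 ± 1.37 in fed PPARα-null mice and 19.0 ± 0.81 in fed wild-type mice. *Yy1*, a zinc finger transcription factor, averaged 76.8 ± 12.9 in fasted PPARα-null and 20.9 ± 1.46 in fasted wild-type mice. Those most like *Cdkn1a* were *Smad2*, *Ltbr*, *Ddit4*, *Rabggta* and *Rrp1*, with r between 0.968 and 0.975. *Ltbr*, the lymphotoxin beta receptor, gave 490 ± 15.8 in fasted PPARα-null mice, 280 ± 35.4 in fasted wild-type mice, 362 ± 6.69 in fed PPARα-null mice and 369 ± 34.7 in fed wild-type mice.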

How the data were processed

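Linear GCRMA intensities were deposited for 22690 probe sets of Affymetrix mouse arrays, 12 samples in 4 groups of 3. Per the labels, the authors normalized the arrays with GCRMA 2.20, and the deposited intensity values carry no detection call. Each probe set was named from the platform annotation. Of the probe sets, 20393 had 1 symbol, 691 had several and were named by none of them, and 1606 had none. Intensities were log2 transformed and fitted with limma 3.58.1 (R 4.3.3), with 1 mean per group over all 12 arrays and empirical Bayes moderation. The level of 20 in fed wild-type mice, p under 0.01 and fold over 1.3 follow the study's methods. A gene was called when 1 of its probe sets was. Adjusted p-values are Benjamini-Hochberg over the 9370 probe sets tested. Fasting responses were taken relative to the median shift of all tested probe sets (-0.32), which was -0.33 in PPARα-null and -0.28 in wild-type mice. Named genes were all members with every probe set, up to 3 called genes per list and direction, and the 5 genes closest to *Pmaip1* and *Cdkn1a*. The members, the lists and the cell type markers were chosen with earlier results of these data known. The fit was checked on simulated data. No array was left out, and sequences were taken from RefSeq (GRCm38.p6). Alternatives covered scaling, filters, thresholds, variance model, probe set type, replicate number and each array in turn. Leaving out 2 fasted PPARα-null arrays was added after seeing the data.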

Additional observations from a re-analysis of the deposited data

Results flagged for a closer look

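The fasting response differed between PPARα-null and wild-type mice, by the test of the difference itself, for 4 probe sets of 3 genes. The difference, PPARα-null minus wild-type on the log2 scale, was 1.19 for *Cdkn1a* 1424638_at, -0.82 for *Btg2* 1448272_at, -0.63 for *Ccng1* 1450017_at and -0.67 for *Ccng1* 1420827_a_at. The call on the 1420827_a_at difference was lost after quantile normalization (-0.62), with arrays centred on their median (-0.59) and with replicate number as a block. It was also lost when any 1 array other than fasted PPARα-null replicate 2 or fed wild-type replicate 1 was left out. The other *Ccng1* probe set, 1450016_at, gave 0.08. Across all genes tested 27.1% passed the same test.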

How the results depend on the processing

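With 3 arrays per group, dim probe sets and the different median intensities of fasted and fed arrays set the limits. Between the fed genotypes 0 members, and between the fasted genotypes and in the difference of the fasting responses 3 members (2 to 4 over all settings run), were called and stayed within 1.5 times that count under every setting run. In the main fit 3.28%, 35.1% and 27.1% of all genes tested were called in these comparisons. Upon fasting in wild-type mice 1 member (*Pmaip1*) was called. That count was 2 as deposited (*Ccng1* and *Mdm2*), 2 after quantile normalization (*Ccng1* and *Pmaip1*), 2 with no filter on level (*Cdkn1a* and *Pmaip1*), 0 with a fed wild-type level over 100, and 0 to 2 with 1 array left out. The share of all genes called upon fasting in wild-type mice was 22.8% in the main fit and 41.8% as deposited. It was 23.3% after quantile normalization and 20.3% with no filter on level. The *Cdkn1a* call came from the dim probe set 1421679_a_at, at 0.40 relative to the common shift and 0.08 as deposited. The count was 0 without fasted wild-type replicate 1 or fed wild-type replicates 2 or 3. The cause was not tested.

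Replicate numbers did not pair the arrays. Deviations from the group means of same-numbered arrays correlated at -0.15 to 0.22, and 5 of 12 arrays correlated best with their own number. With replicate number as a block the counts were 1, 0, 3 and 3, beside 22.6%, 3.47%, 34.9% and 26.4% of all genes tested. Among member probe sets only the *Ccng1* 1420827_a_at difference of -0.67 between the fasting responses was then lost.

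Signs turned only for differences that had not passed the test. In wild-type fasting the values as deposited were -0.24 for *Btg2* 1416250_at, -0.079 for *Ccng1* 1420827_a_at, -0.13 for *Bbc3* and -0.27 for *Cdkn1a* 1424638_at, the last being -0.010 after quantile normalization. *Ccng1* 1450016_at between the fasted genotypes was 0.038 after quantile normalization, 0.022 with arrays centred on their median and 0.067 without fasted PPARα-null replicates 1 and 3. *Ccng1* 1450017_at between the fed genotypes was -0.0051 with centred arrays. With 1 array left out, wild-type fasting differences ranged from -0.042 to 0.18 for *Btg2* 1416250_at, -0.15 to 0.047 for *Btg2* 1448272_at, -0.28 to 0.13 for *Trp53inp1* 1416926_at, -0.094 to 0.034 for *Mdm2* 1423605_a_at and -0.11 to 0.15 for *Cdkn1a* 1424638_at. Between the fed genotypes the ranges were -0.052 to 0.21 and -0.12 to 0.080 for the same *Btg2* probe sets, -0.022 to 0.21 for *Trp53inp1*, -0.26 to 0.030 for *Mdm2*, -0.0078 to 0.24 for *Cdkn1a*, and -0.0092 to 0.25 for 1420827_a_at, -0.19 to 0.012 for 1450016_at and -0.012 to 0.10 for 1450017_at of *Ccng1*. Between the fasted genotypes they were -0.068 to 0.33 for *Trp53inp1* and -0.060 to 0.024 for *Ccng1* 1450016_at, and for the difference of the responses -0.15 to 0.25 and -0.030 to 0.17.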
